A study of Mus musculus with 27 samples.

Results

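The step from early to late hemogenic endothelium was followed here in mouse cells in which AP-1 was blocked. Of the 27 arrays of the study, 4 bear on it: 2 of HE1 cells and 2 of HE2 cells, all from cultures given doxycycline (DOX). These 4 were picked by their labels, with earlier results of these data known, and every gene on the array was considered. The cells came from the dnFOS mouse embryonic stem cell line, in which DOX induces dnFOS, a dominant-negative form of FOS with a Flag tag, from the Hprt locus, and which was made from clones picked after selection. FLK1+ cells were purified from embryoid bodies and kept in blast culture with VEGF and IL-6, with 1 µg/ml DOX for the 2 days of that culture. HE1 cells were then sorted as KIT+TIE2+CD41− and HE2 cells as KIT+TIE2+CD41+. The untreated HE1 and HE2 cells used for comparison, also 2 arrays each, are of the same line and sorts, so that all 8 arrays carry the dnFOS cassette and differ in whether it was switched on. Cells without the cassette were not given DOX on these arrays, and an effect of DOX itself cannot be told apart from one of dnFOS.

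Hemogenic endothelium is endothelium that can give rise to blood. In the endothelial-to-hematopoietic transition such cells switch on blood genes under the control of RUNX1 and its target GFI1B, lose endothelial and matrix genes and detach. AP-1 is a dimer of FOS, JUN or ATF family proteins, and dnFOS binds JUN proteins in a form that cannot settle on DNA. The question put to the data was which genes separate late from early hemogenic endothelium when AP-1 is blocked, and whether this step is the same as in untreated cells.

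Levels are given as the log2 signal of a gene's probe, less the log2 75th percentile of that array. Differences are HE2 minus HE1, with SE their standard error, and adjusted p-values are those of limma with Benjamini-Hochberg adjustment over all genes tested. A gene was tested where its probe was well above background on both arrays of HE1, of HE2 or of each, and was called where its adjusted p lay under 0.05 and it changed 2-fold or more. Replicate 1 of each group lay on one slide and replicate 2 on another, so the first of a pair of values for HE1 and the first for HE2 share a slide, as do the second. Over the 4 arrays the 75th percentile lay between 138.1 and 335.2, and from 56.2% to 66.9% of probes were above background. Replicates correlated across probes with r of 0.927 in HE1 and 0.951 in HE2. With 2 arrays a group, the precision is limited by their number. The p-values rest on a spread estimated over all 27 arrays in 13 groups, not on these 4 arrays alone. Nothing states that the arrays of a group came from separate cultures, so that spread is between arrays.

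From HE1 to HE2, named genes of blood cells and platelets were called higher (11 of 25 platelet genes) and genes of the matrix and mesenchyme were called lower (8 of 39 matrix genes and 5 of 12 mesenchymal factors), while most members of these lists did not pass the test. Of 23823 genes tested, 108 were called higher in HE2 (0.453%) and 277 lower (1.16%). Among them 97 and 228 had a gene symbol. The median difference of all genes tested was 0.08. Of the called genes 86 had a probe above background in 1 group alone, 15 of them called higher and 71 lower, so that they passed the filter through their higher group and their change is known as a bound. In each of the 385 called genes the HE1 and HE2 arrays did not overlap, as was the case for 12.3% of all genes tested in the upward and 16.5% in the downward direction. Where arrays do not overlap, within-slide differences must have the direction of the call, so the 384 genes in which both did are no further evidence. For the remaining transcript 1 HE2 array gave no value. When slide was added to the fit, 422 genes were called higher (1.77%) and 711 lower (2.98%), and all 385 genes were among these. The share of calls that were higher, 28.1% here, was 62.7% with median scaling of the arrays, 41.0% after normexp background correction and 37.2% with slide in the fit. In a fit to the compared arrays alone 0 genes were called, with a lowest adjusted p of 0.143. At an unadjusted p under 0.05, 2071 genes differed in the fit to all 27 arrays. The calls fell to 21 higher and 86 lower without HE1 replicate 1, 85 and 131 without HE1 replicate 2, 38 and 58 without HE2 replicate 1, and 22 and 78 without HE2 replicate 2. Without each of the 4 arrays in turn, 38 of the 385 genes were called every time, 15 of them higher and 23 lower, and 12 of them have a bound only.

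**Figure D1:**
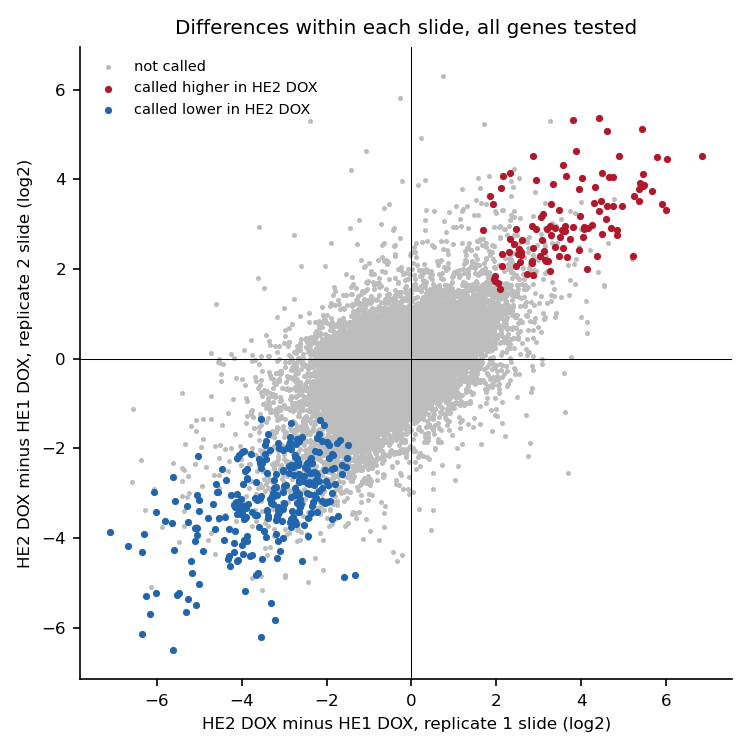
Differences between HE2 and HE1 cells with DOX (log2), on the slide of replicate 1 (x axis) and the slide of replicate 2 (y axis), for each gene tested. Red points are the 108 genes called higher and blue points those of the 277 called lower that have a value on all 4 arrays. They lie in the upper right and the lower left because their arrays do not overlap. Across the 23801 genes with a value on all 4 arrays the correlation of the plotted differences was 0.652, with genes that are not independent of each other.

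Of the 10 largest fitted rises, 4 were in genes known from platelets, Plek, Itgb3, F13a1 and Mmrn1. Plek, which encodes the platelet protein pleckstrin, gave -1.99 and 0.16 in HE1 and 4.87 and 4.67 in HE2. Both HE2 arrays were far above both HE1 arrays, a 51.5-fold rise (log2 difference 5.69, SE 0.65, adjusted p = 0.0003306). Itgb3, the integrin subunit that pairs with CD41 on platelets, gave -0.81 and 2.28 in HE1 and 5.21 and 6.72 in HE2, 37.6-fold higher (adjusted p = 0.002759). On each slide the HE2 array was the higher one, by 6.02 and 4.44 on the log2 scale. F13a1, a clotting factor subunit, rose 35.3-fold from -3.19 and -1.85 to 2.61 and 2.63 (adjusted p = 0.0003438), although a weaker probe of the same gene differed by 0.63. Mmrn1, which encodes the platelet granule protein multimerin, rose 26.0-fold from -1.63 and -1.14 to 3.26 and 3.37 (adjusted p = 0.001132). These genes shared a tight pair of HE2 values, apart from Itgb3, while the HE1 values were lower in replicate 1 than in replicate 2.

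The other rises were in Ltf, Fcer1g, Clec4d, Cst7, Ikzf1 and Dcpp3. Apart from Fcer1g, their places among the 10 rest at least in part on signals below background. Ltf, which encodes the granule protein lactoferrin, was not well above background on either HE1 array (-5.45 and -5.55), and was at least 16.7-fold higher in HE2 (-0.01 and -0.43, adjusted p = 0.0002451). Fcer1g, the signalling chain of Fc receptors, rose 27.6-fold from -2.24 and -0.20 to 3.21 and 3.92 (adjusted p = 0.00219). Clec4d, a lectin receptor of myeloid cells, rose 26.1-fold from -5.38 and -3.36 to 0.29 and 0.37 (adjusted p = 0.0102), and Cst7, a cystatin protease inhibitor of immune cells, rose 28.8-fold from -4.21 and -4.24 to 0.40 and 0.84 (adjusted p = 0.009422). Both were above background on 1 of the 2 HE1 arrays, so that these sizes rest in part on signals below background. Ikzf1, the transcription factor IKAROS, rose 25.6-fold from -5.79 and -2.75 to -0.31 and 1.12 (adjusted p = 0.01202). It was likewise above background on 1 HE1 array and had probes that differed by 2.26 to 4.68. Dcpp3 was nowhere above background in HE1 and at least 11.8-fold higher in HE2 (adjusted p = 0.02484). Plek, F13a1 and Mmrn1 were called without each array in turn, as was Ltf, whose HE1 values lay below background throughout. Adjusted p reached 0.05353 for Itgb3 and Fcer1g, 0.095 for Cst7, 0.1626 for Clec4d, 0.2073 for Ikzf1 and 0.2891 for Dcpp3 when the least favourable array was left out. After normexp background correction, which adds an offset and draws low signals together, the differences of the 10 genes were 1.76 to 4.95, and the calls of Ltf (1.87, adjusted p = 0.06631) and Dcpp3 (1.76, adjusted p = 0.1202) were lost. With the authors' values Ltf differed by 3.20. The difference of Ikzf1 was 2.14 after normexp and 3.28 with the authors' values, both called. Array weights ended the calls of Dcpp3, Cst7, Clec4d and Ikzf1.

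**Figure D2:**
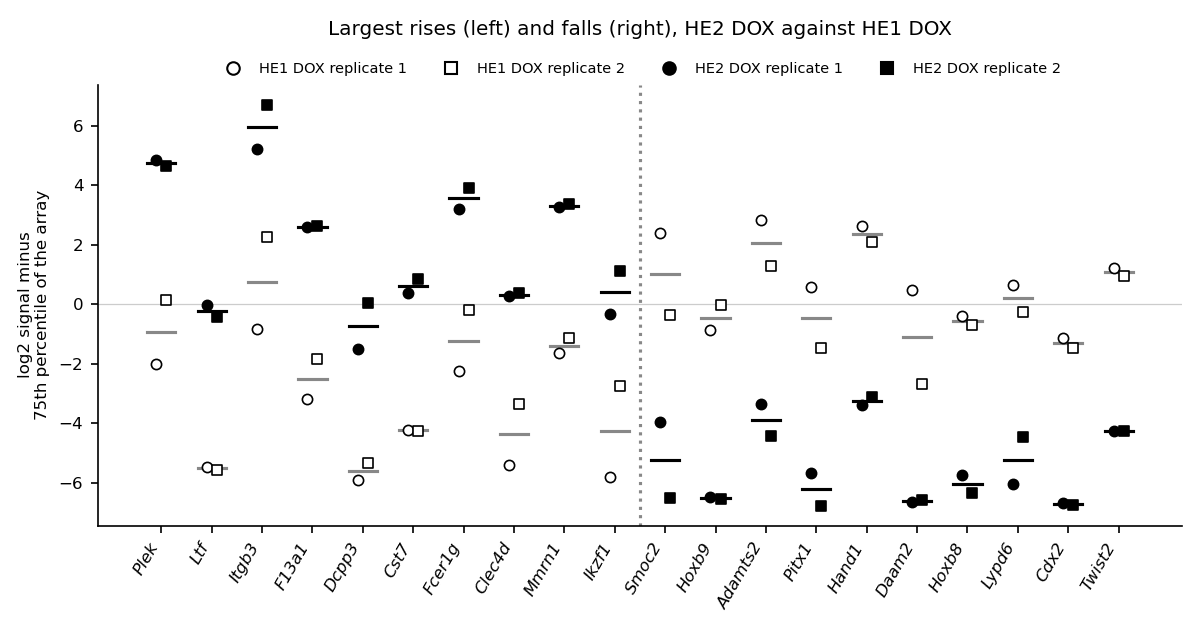
Level relative to the 75th percentile (log2, y axis) of the 10 largest rises and the 10 largest falls among called genes (x axis), in HE1 (open symbols) and HE2 (filled symbols) cells with DOX. Circles are replicate 1, squares replicate 2, and bars are group means (grey HE1, black HE2). By the rule of choice, both HE2 arrays of each gene lie on one side of both HE1 arrays.

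The 10 largest fitted falls were in Hand1, Twist2, Hoxb9, Hoxb8, Cdx2, Pitx1, Smoc2, Adamts2, Daam2 and Lypd6. In 6 of them no HE2 array was above background, so their place rests on signals below background and they have no order against genes measured in both groups, such as Col3a1, Snai2 and Tbx20 given later. Hand1, a transcription factor of heart and extra-embryonic mesoderm, gave 2.64 and 2.10 in HE1 and -3.39 and -3.12 in HE2, a 49.3-fold fall (log2 difference -5.62, SE 0.84, adjusted p = 0.002179). Twist2, a mesenchymal transcription factor, gave 1.23 and 0.96 in HE1 and -4.25 and -4.26 in HE2, 40.7-fold lower (adjusted p = 0.004703). All 4 arrays measured both genes, and the replicates of each group lay close together. The posterior homeobox genes Hoxb9, Hoxb8 and Cdx2 were above background on both HE1 arrays and on neither HE2 array. Hoxb9 gave -0.85 and -0.03 in HE1 against -6.47 and -6.53 in HE2, at least 17.3-fold lower (adjusted p = 0.004599). Hoxb8 was at least 16.0-fold lower (adjusted p = 0.004672) and Cdx2, which acts upstream of HOX genes, at least 9.51-fold lower (adjusted p = 0.00219). Pitx1, a homeobox gene of the hindlimb, was at least 17.3-fold lower (adjusted p = 0.009422).

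Among matrix and signalling genes, Smoc2, a secreted calcium-binding matrix protein, gave 2.40 and -0.37 in HE1 and -3.95 and -6.51 in HE2 (fitted as 76.0-fold lower, adjusted p = 0.03411), and was above background on 1 HE2 array, so that the size rests in part on a signal below background, as it does for Adamts2. The 2 slides differed in level and gave nearly the same difference, -6.35 and -6.14. Adamts2, which trims procollagen, fell 61.2-fold from 2.84 and 1.29 to -3.33 and -4.41 (adjusted p = 0.01446), with 1 HE2 array above background and another probe of the gene that differed by -0.55. Daam2, a formin of WNT signalling, was at least 10.8-fold lower (adjusted p = 0.00935) and Lypd6, another WNT pathway gene, at least 26.7-fold lower (adjusted p = 0.003404), its probes differing by -5.44 to -1.40. Hand1 was called without each array in turn, as were Hoxb9 and Cdx2, whose HE2 values lay below background throughout. Adjusted p rose to 0.05506 for Twist2, 0.05732 for Hoxb8, 0.06973 for Lypd6, 0.1398 for Pitx1, 0.16 for Daam2, 0.1729 for Adamts2 and 0.3788 for Smoc2 at most. After normexp correction the 10 differences were -4.03 to -1.64, and the calls of Cdx2 (-1.64, adjusted p = 0.558), Daam2 (-1.66, adjusted p = 0.6153), Pitx1 (-2.17, adjusted p = 0.2402), Hoxb8 (-2.02, adjusted p = 0.1073), Lypd6 (-2.43, adjusted p = 0.09469) and Smoc2 (-3.10, adjusted p = 0.261) were lost. With the authors' values Smoc2 (-4.37, adjusted p = 0.1206), Pitx1 (-3.29, adjusted p = 0.09226) and Daam2 (-2.57, adjusted p = 0.2116) were not called. Smoc2 was also lost with quantile or median scaling, without the filter on dim probes and with array weights (adjusted p from 0.05268 to 0.08856), and Adamts2 with median scaling and with the mean of its probes (-3.24). With DOX, smooth muscle (SM) cells sorted from the same kind of culture gave 4.80 and 3.23 for Hand1 and 2.79 and 1.35 for Twist2.

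The surface proteins used for the sort set the labels and are given as a check. Itga2b, which encodes CD41, gave 1.94 and -0.82 in HE1 and 3.84 and 0.06 in HE2. HE2 was higher on each slide, by 1.90 and 0.88, but the arrays of the groups overlapped and the difference did not pass the test (1.39, SE 1.10, adjusted p = 0.9092). Kit gave 3.24 and 3.91 in HE1 and 4.83 and 5.39 in HE2 (difference 1.54, adjusted p = 0.5747). With slide in the fit Kit was called higher (adjusted p = 0.02083). Tek, which encodes TIE2, gave 2.75 and 0.21 in HE1 and 2.71 and -0.74 in HE2 (difference -0.49, adjusted p = 0.9991). Here the slides were farther apart than the groups. No probe was labelled as reading dnFOS, so its induction was not checked on these arrays. Hprt, at whose locus the cassette lies, gave 3.04 and 4.55 in HE1 and 4.95 and 5.83 in HE2 (difference 1.60, adjusted p = 0.2438).

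Most endothelial genes were above background in both groups, and few passed the test. Of the surface and junction genes 39 were above background on each HE1 array and 37 on each HE2 array, and of the transcription factors 26 and 25. Of 39 endothelial surface and junction genes tested, 2 were called lower and 0 higher, with a median difference of -0.73 (-1.27 without HE2 replicate 1, -0.36 with median scaling). Angpt2, the TIE2 ligand that loosens vessels, gave -0.08 and -0.29 in HE1 and was not above background in HE2 (-4.36 and -4.90), at least 18.8-fold lower (adjusted p = 0.0003306). Tmem88, a membrane inhibitor of WNT signalling, fell 4.49-fold (adjusted p = 0.04265), a call lost without any of the 4 arrays. The pan-endothelial genes did not pass: Cdh5 differed by -0.29 (SE 1.52), Pecam1 by -0.06 (SE 0.85) and Kdr by 0.03 (SE 0.81). The arterial genes Efnb2 (-2.45, adjusted p = 0.06528) and Unc5b (-3.39, adjusted p = 0.08836) were called lower with slide in the fit. The lymphatic and sinusoidal gene Lyve1 differed by 2.75 (adjusted p = 0.0666) and was called higher in that fit. None of 26 endothelial transcription factors was called, 3 were called lower with slide in the fit, and their median was -0.43 (0.20 without HE1 replicate 2, -0.94 without HE1 replicate 1), while Foxc2 differed by -4.35 (adjusted p = 0.06317) and Sox17 by -2.39 (adjusted p = 0.7934).

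Of 31 hematopoietic transcription factors measured 30 were tested, and 6 were called higher and 0 lower, with a median difference of 0.96 that became 0.46 without HE1 replicate 1 and 1.68 without HE1 replicate 2. Runx1, the factor on which the transition depends, gave -0.34 and 1.70 in HE1 and 3.71 and 4.41 in HE2, 10.4-fold higher (log2 difference 3.37, SE 0.66, adjusted p = 0.01202). HE2 lay above HE1 on each slide, by 4.04 and 2.70. Gfi1b, a repressor downstream of RUNX1, gave -0.76 and 2.06 in HE1 and 3.40 and 4.97 in HE2, 11.6-fold higher (adjusted p = 0.02503). Myb, a factor of definitive progenitors, rose 13.5-fold (adjusted p = 0.043), Nfe2, a factor of platelet formation, 9.77-fold (adjusted p = 0.01577), and Ikzf2, a relative of Ikzf1, 9.09-fold (adjusted p = 0.04027). In all 6 factors HE1 replicate 1 was the lowest array and both HE2 arrays were above both HE1 arrays. None of the 6 was called without each array in turn.

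Factors already found in hemogenic endothelium and its precursors were above background in HE1 and did not pass the test. Tal1 differed by 1.10 (SE 0.96), Lyl1 by 1.18 (SE 1.09), Lmo2 by 0.44 (SE 0.79), Gata2 by 0.53 (SE 1.11), Fli1 by 0.07 (SE 1.43) and Hhex by 0.53 (SE 1.14). Cbfb, the partner of RUNX1, differed by 0.41 (SE 0.59). Gata1, which drives erythroid and megakaryocytic genes, gave -3.00 and -0.38 in HE1 and 1.20 and 2.04 in HE2, with a difference of 3.32 (SE 0.84) and an adjusted p of 0.05151. With slide in the fit Gata1 passed (adjusted p = 0.03805), as did Bcl11a, which differed by 2.36 (adjusted p = 0.00566, and 0.2615 without the block). Gfi1 differed by 2.29 (SE 1.08, adjusted p = 0.5686). Spi1, which encodes the myeloid factor PU.1, was above background on 1 HE2 array and was not tested. Other differences ran from -2.18 for Mecom through -0.33 for Hlf, -0.14 for Runx3, 0.38 for Zfpm1, 0.45 for Ldb1, 0.54 for Etv6, 0.61 for Mycn, 0.75 for Cbfa2t3, 0.83 for Stat5b, 1.08 for Meis1, 1.24 for Myc and 1.41 for Stat5a to 1.42 for Klf1, and none passed.

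**Figure D3:**
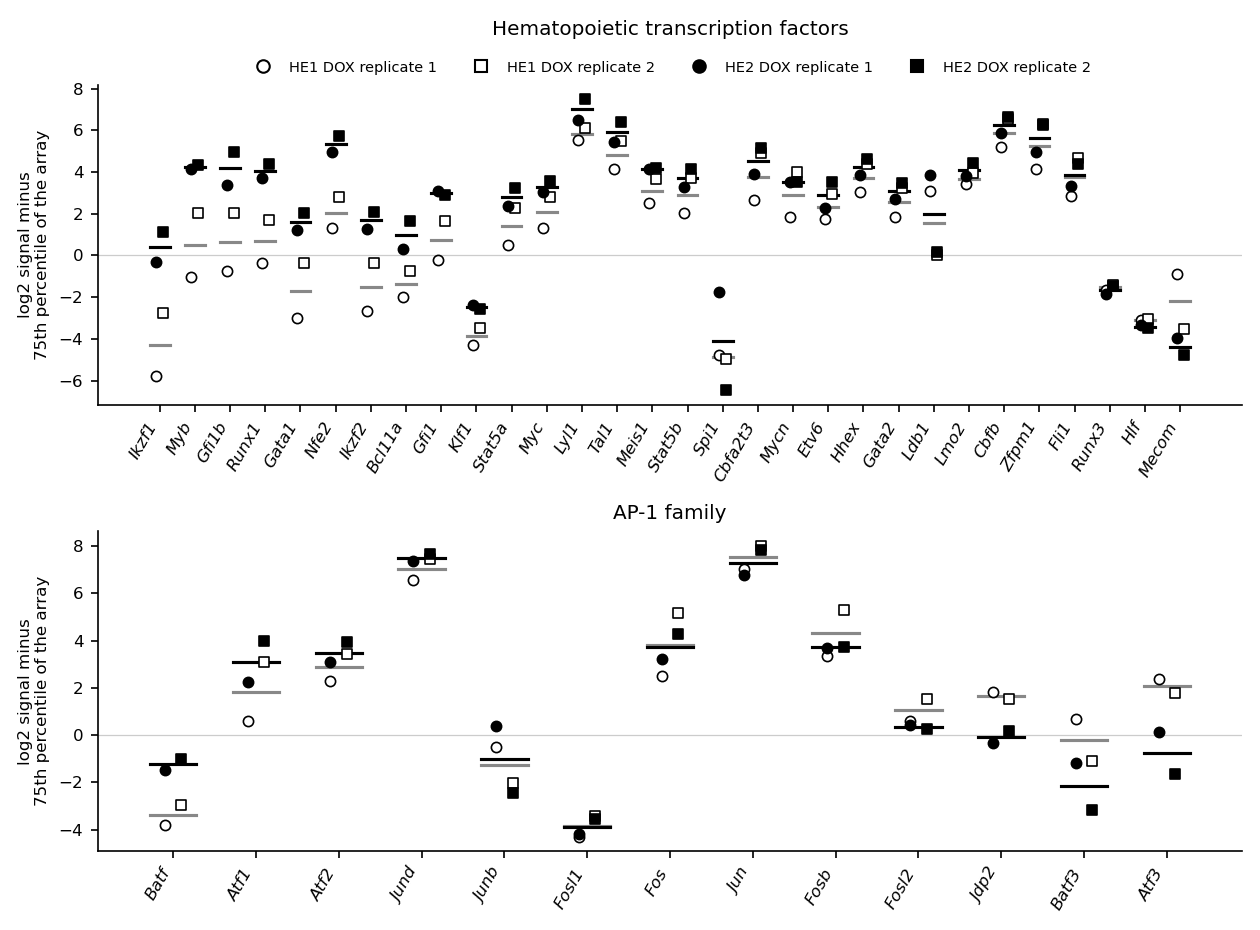
Level relative to the 75th percentile (log2, y axis) of 30 of the 31 hematopoietic transcription factors measured (upper panel) and the AP-1 family (lower panel), ordered by the difference of means, in HE1 (open) and HE2 (filled) cells with DOX. Circles are replicate 1, squares replicate 2, and bars are group means (grey HE1, black HE2). Runx1 and the other factors at the left of the upper panel separate the groups, and most AP-1 genes do not.

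Of 25 megakaryocyte and platelet genes tested 11 were called higher and 0 lower, with a median of 2.78, or 2.59 where 4 genes not above background in HE1 were set to their bound, and 1.64 after normexp. They included Rgs18, a regulator of platelet signalling (at least 7.93-fold, adjusted p = 0.001016) and Gp9, a subunit of the von Willebrand factor receptor (8.61-fold, adjusted p = 0.02482). The platelet gene Pf4 differed by 2.78 (adjusted p = 0.4345) and Gp1bb by -0.70 (adjusted p = 0.9308). Of 32 pan-hematopoietic surface and signalling genes 10 were called higher, with a median of 2.08 (1.00 after normexp). Dok2, an adaptor, gave 1.27 and 2.05 in HE1 and 5.22 and 5.84 in HE2 (14.6-fold, adjusted p = 0.0003438), and Coro1a, an actin regulator of leukocytes, rose 14.8-fold (adjusted p = 0.002089). Was, which encodes the Wiskott-Aldrich syndrome protein, rose 11.3-fold (adjusted p = 0.00821) and Hcls1, its cytoskeletal neighbour in blood cells, 12.3-fold (adjusted p = 0.005858). Ptprc, which encodes the pan-leukocyte protein CD45, differed by -0.19 (adjusted p = 0.9995). Dok2 and Coro1a were called without each array in turn, and 13 of the 25 platelet genes and 15 of the 32 pan-hematopoietic genes were called higher with slide in the fit.

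Myeloid genes were split. Of 28 measured 20 were tested, 6 were called higher and 0 lower, and the median was 0.50 (0.16 without HE1 replicate 1, 0.88 without HE2 replicate 1, 0.12 after normexp). Mpo, which encodes myeloperoxidase, gave 0.92 and 2.88 in HE1 and 5.50 and 6.00 in HE2, 14.4-fold higher (adjusted p = 0.01041). Lyz1, a lysozyme, rose 10.6-fold (adjusted p = 0.0279), Cebpb, a myeloid transcription factor, 7.83-fold (adjusted p = 0.03559), and Tyrobp, an adaptor of activating receptors, 16.1-fold (adjusted p = 0.002846). Csf1r, the receptor of macrophage growth factor, differed by -0.49 (adjusted p = 0.9985), Itgam, which encodes CD11b, by -1.56 (adjusted p = 0.7007) and the neutrophil elastase gene Elane by -0.42 (adjusted p = 0.9977). Of 14 cytokine receptors tested (median 0.39, from 0.23 without HE1 replicate 1 to 0.86 without HE1 replicate 2, and 0.02 without the filter on dim probes) 2 were called higher, among them Il6ra (4.85-fold, adjusted p = 0.02097). None of 29 erythroid genes was called in this fit, and their median was 0.77, which became 0.13 without HE1 replicate 1 and 0.28 without HE2 replicate 2. The embryonic globin Hbb-bh1 differed by 1.58 (adjusted p = 0.7243), and with slide in the fit Gata1, Car2 and Gypc, a membrane skeleton protein gene, were called higher. All 28 cell division genes tested differed in the upward direction, by 0.35 to 1.85 with a median of 0.88, and 0 were called, or 2 higher with slide in the fit. This median was 0.26 without HE1 replicate 1, 0.39 without HE2 replicate 2, 1.33 without HE2 replicate 1 and 1.46 without HE1 replicate 2.

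Of 39 collagen and basement membrane genes tested 8 were called lower and 0 higher. All 39 differences were negative, and their median was -2.01, or -1.75 with 4 genes at their bound. Timp2, a metalloproteinase inhibitor, gave 2.92 and 3.15 in HE1 and -0.98 and -0.39 in HE2, 13.2-fold lower (adjusted p = 0.001132), and was the member called without each array in turn. Col3a1 fell 26.1-fold (adjusted p = 0.03054), Timp1 16.0-fold (adjusted p = 0.03251) and P4ha2, which hydroxylates collagen, 9.53-fold (adjusted p = 0.004703). With slide in the fit 20 of the 39 were called lower. Of 35 integrin and adhesion genes 5 were called lower and 1, Itgb3, higher, with a median of -0.74 (-0.36 with median scaling). Itga8 fell 21.0-fold (adjusted p = 0.007273) and Itgb5, a subunit of a vitronectin receptor, 15.6-fold (adjusted p = 0.003254), the latter without each array in turn too, and 2 of the 35 were called higher and 10 lower with slide in the fit.

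Of 12 mesenchymal transition factors tested, with a median of -2.75 (-1.70 after normexp), 9 were called lower with slide in the fit and 5 without it: Twist2, Twist1 (6.73-fold, adjusted p = 0.009422), Snai2 (23.9-fold, adjusted p = 0.01577), Snai1 (6.73-fold, adjusted p = 0.04396) and Tbx20 (21.9-fold, adjusted p = 0.001132), of which Tbx20 was called without each array in turn. Of 12 cardiac genes tested, with a median of -1.91, Hand1 and Isl1 were called lower, or 8 genes with slide in the fit, Isl1 by at least 2.84-fold (adjusted p = 0.02795). Acta2, the smooth muscle actin, gave 7.91 and 8.04 in HE1 and 3.89 and 4.59 in HE2, 13.3-fold lower (adjusted p = 0.006119), a call lost without replicate 1 of either group. SM cells with DOX gave 8.94 and 9.64 for it. Cald1, another contractile gene, fell 6.00-fold (adjusted p = 0.009422), and no other of the 19 smooth muscle genes tested was called (median -0.97, and -0.58 after normexp). Of the 19 differences 15 were negative and 4 positive, with Tagln at -2.81 (adjusted p = 0.1978), Cnn1 at -3.00 (adjusted p = 0.3722) and Mrvi1 at 2.24 (adjusted p = 0.07264), and in the fit with slide 3 genes were called lower and Mrvi1 higher (adjusted p = 0.02443). Among 9 mesoderm and pluripotency genes tested (median -0.78, and -0.27 with the authors' values) Pdgfra fell 5.46-fold (adjusted p = 0.04685), and among 6 epithelial and mesothelial genes tested (median -2.97, but -1.63 without HE1 replicate 1, -1.45 after normexp and -1.28 without the filter on dim probes) Krt18 fell 7.79-fold (adjusted p = 0.04754).

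Several lists of markers of other cell types had lower summed signals in HE2 on each slide, and the sums were not tested. The summed signal of the 23 smooth muscle genes measured, in units of the 75th percentile, was 787.6 and 1235 on the HE1 arrays, 435.1 and 898.6 on the HE2 arrays and 1358 and 3074 on the SM arrays with DOX, with 19 and 21 genes above background in HE1 and 18 and 17 in HE2. That of the 17 mesenchymal factors was 30.5 and 30.8 in HE1, 10.4 and 12.3 in HE2 and 65.3 and 40.8 in SM cells. For the 14 cardiac genes it was 33.9 and 85.7 in HE1 against 8.98 and 17.2 in HE2. For the collagen list it was 1099 and 2157 in HE1 and 505.3 and 982 in HE2, and for 10 epithelial and mesothelial genes 89.6 and 36.3 against 6.17 and 8.65. In the mesenchymal, cardiac, collagen and epithelial lists each HE1 array of a slide was above its HE2 array, as it was for smooth muscle. The same held for the 39 endothelial surface and junction genes measured, with 1267 and 2471 in HE1 against 856.4 and 1787 in HE2. The HE1 and HE2 sorts both asked for KIT and TIE2. The summed signal of Kit, Tek and Itga2b was 1.71 and 2.54 on the SM arrays with DOX. It was 20.0 and 16.7 in HE1 and 49.3 and 43.6 in HE2. This sum follows Kit, its brightest member on each HE1 and HE2 array, and does not measure a share of other cells. Fewer cells of such a type and less RNA per cell cannot be told apart in sorted bulk samples, and the part of other cells in these differences was not tested.

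**Figure D4:**
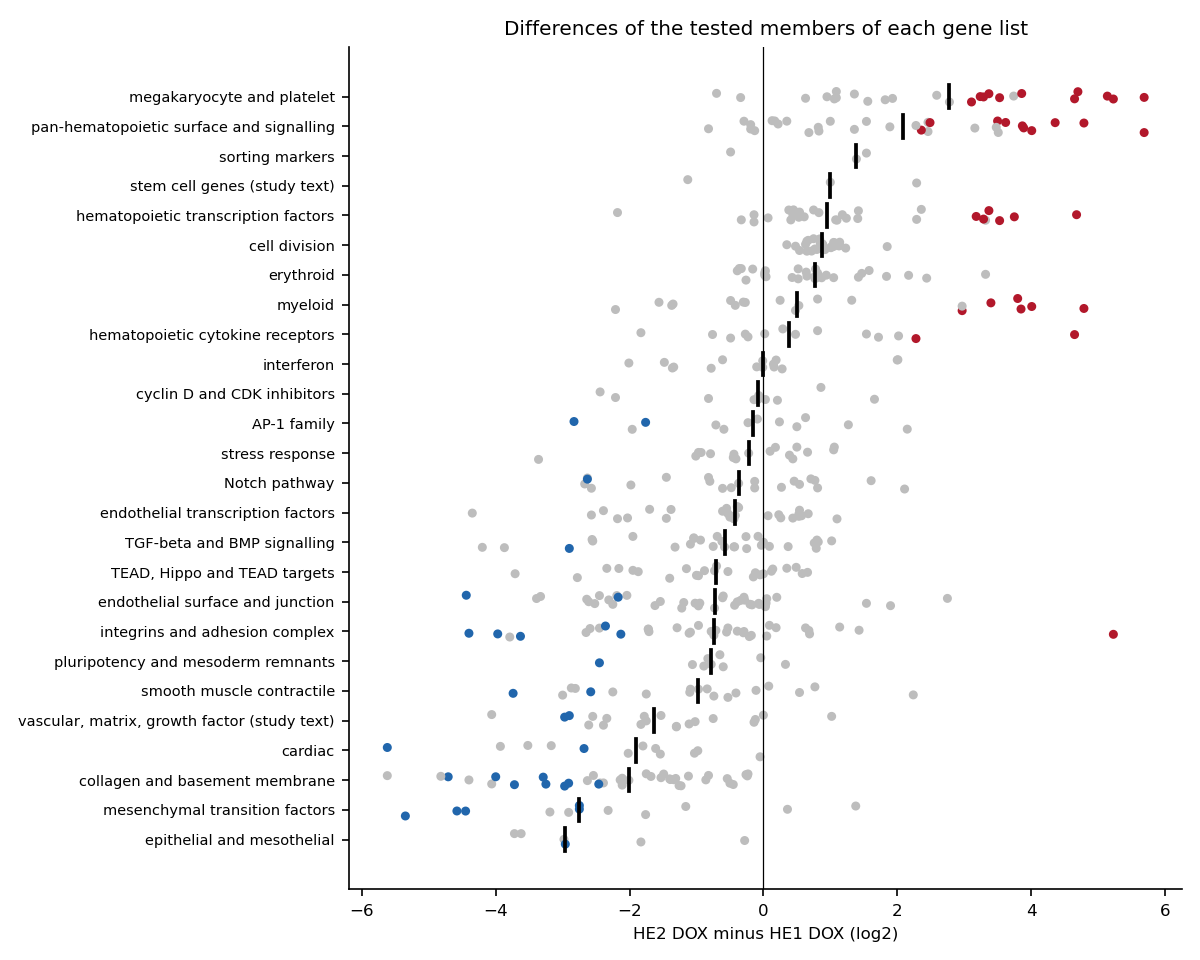
Difference between HE2 and HE1 cells with DOX (log2, x axis) for the tested members of each gene list (y axis). Red points were called higher, blue points lower and grey points not, and black bars are medians. Megakaryocyte and pan-hematopoietic genes lie to the right, and collagen, mesenchymal and cardiac genes to the left.

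The AP-1 family itself was tested for 12 of 13 genes measured, of which 2 were called lower and 0 higher, with a median of -0.16 that was 0.32 at most and -0.73 at least under the other settings. Atf3, a stress-induced repressor, gave 2.38 and 1.77 in HE1 and 0.14 and -1.65 in HE2, 7.10-fold lower (adjusted p = 0.04632). Jdp2, a JUN-dimerising repressor, gave 1.82 and 1.55 in HE1 and -0.34 and 0.19 in HE2, 3.38-fold lower (adjusted p = 0.02991). Both calls were lost without any 1 of the 4 arrays. The subunits of classical AP-1 did not pass: Fos differed by -0.09 (SE 0.81), Fosb by -0.59 (SE 0.70), Fosl2 by -0.71 (SE 0.44), Jun by -0.23 (SE 0.55), Junb by 0.24 (SE 0.91) and Jund by 0.50 (SE 0.68). Fosl1 was above background on 1 array of each group and was not tested. Batf, a blood cell AP-1 member, differed by 2.15 (adjusted p = 0.1366) and was called higher with slide in the fit. Batf3 differed by -1.96, Atf1 by 1.27 and Atf2 by 0.63, and none of these passed.

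A list of vascular, matrix and growth factor genes was drawn up from those that the study's text names as bound by FOS and JUN or as lower with AP-1 blocked, with Tgfb1, Tgfb2 and Tgfb3 all taken for the Tgfb it names. They were named in part from these arrays, so the list is no independent evidence of a direction. Its median was -1.64 over 20 genes, of which 2 were called lower and 0 higher. Of these Tgfb2, a secreted TGF-β ligand, fell 7.47-fold (adjusted p = 0.0172). Differences of genes that did not pass were -4.06 for Col1a1, -2.61 for Nrp1, -2.39 for Col4a1, -2.34 for Ccn2, -1.83 for Wt1, -1.78 for Myo1e, -1.75 for Col5a1, -1.53 for Bmp1, -1.30 for Hbegf, -1.11 for Itga11, -1.02 for Vegfa, -0.75 for Tgfb3, -0.14 for Cdkn2a, -0.12 for Pdgfc, 0.00 for Bmp2 and 1.02 for Tgfb1. With slide in the fit 7 of the 20 were called lower. Of 24 genes of the TEAD and Hippo pathway and its targets tested, 0 were called here and 6 were called lower in that fit. Their median was -0.71 (-0.37 without HE1 replicate 2), and Tead4 differed by -1.15 (adjusted p = 0.6854) and Yap1 by -1.40 (adjusted p = 0.3826). Of the stem cell genes in the study's text, also no independent evidence, Hoxb4 differed by -1.13, Bmi1 by 1.00 and Gfi1, as above, by 2.29, and none was called.

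Signalling lists outside AP-1 held 1 call each at most. Of 29 TGF-β and BMP genes tested (median -0.58, but -0.07 without HE2 replicate 1, -0.17 without HE1 replicate 2, -0.91 without HE1 replicate 1 and -0.20 with median scaling) Tgfb2 alone was called without slide, or 4 genes lower with slide in the fit. Of 21 Notch genes (median -0.37, from -0.96 without HE1 replicate 1 to 0.34 without HE1 replicate 2) Dtx1, a ubiquitin ligase of the pathway, fell 6.18-fold (adjusted p = 0.01174). In the fit with slide 2 Notch genes were called higher and 5 lower. No gene was called among 15 interferon genes, 17 stress response genes and 10 genes of D cyclins and their inhibitors, whose medians were -0.01, -0.22 and -0.07 and changed sign with median scaling. In the same fit 1 interferon gene was called higher and 1 stress gene lower.

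The same step without DOX gave 136 genes called higher (0.58%) and 489 lower (2.09%) of 23452 tested. It shares no array with the step under DOX, although the same slides hold both. Each gene has the same estimate of its spread in both steps, so the calls are not independent. Of the genes called with DOX, 284 were also called without it, which is 73.8% of the 385 genes and 45.4% of the 625 genes called without DOX. All 284 had the same direction. Of the 356 genes called with DOX that were tested without it, 355 had the same sign. The share of same signs over all genes tested in both steps is not given, so this count has no baseline. Runx1, for example, gave 0.25 and -0.35 in untreated HE1 and 4.57 and 3.60 in untreated HE2, and its step with DOX minus that without was -0.76 (log2, SE 0.94).

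A test of the difference between the steps called 0 of 25208 genes (0%), with a lowest adjusted p of 0.9999. At an unadjusted p under 0.05 there were 333 genes (1.32%), 83 with a higher and 250 with a lower step under DOX. The median SE of this difference was 0.98, so that differences well above that size could also go undetected with these arrays. The 0 calls do not show that the steps are alike. With slide in the fit the count was also 0, and without HE2 DOX replicate 1 it was 1. The 5 genes with the lowest unadjusted p are given as values that did not pass. Vsir, an immune checkpoint receptor gene, gave -0.74 and -1.75 in HE1 and -2.07 and -2.98 in HE2 with DOX, and -1.90 and -4.85 against -0.83 and -0.42 without it, which put its groups in opposite order (unadjusted p = 0.000879). Il20ra, a cytokine receptor gene, was called higher with DOX (at least 1.97-fold, adjusted p = 0.01041) and lay between -4.88 and -4.38 on the 4 untreated arrays (unadjusted p = 0.0009736). Nckap5 was at least 4.52-fold lower in HE2 with DOX (adjusted p = 0.001016), falling from -2.56 and -2.19, and gave -4.61 and -4.06 in untreated HE1 (unadjusted p = 0.001656). Apart from Vsir, each of the 5 genes had at least 1 group nowhere above background, so that no size of the difference between steps is given. Foxl2os and Atp4a had unadjusted p of 0.001351 and 0.002136. Of the genes with the largest falls, Hoxb9 gave -1.54 and -3.69 in untreated HE1 and -4.94 and -5.51 in untreated HE2, where it was above background on 1 array. Since Hoxb9 and Hoxb8 were not above background in HE2 with DOX, no size is given for the difference of their steps. For Cdx2, 1 untreated HE1 array gave no value.

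**Figure D5:**
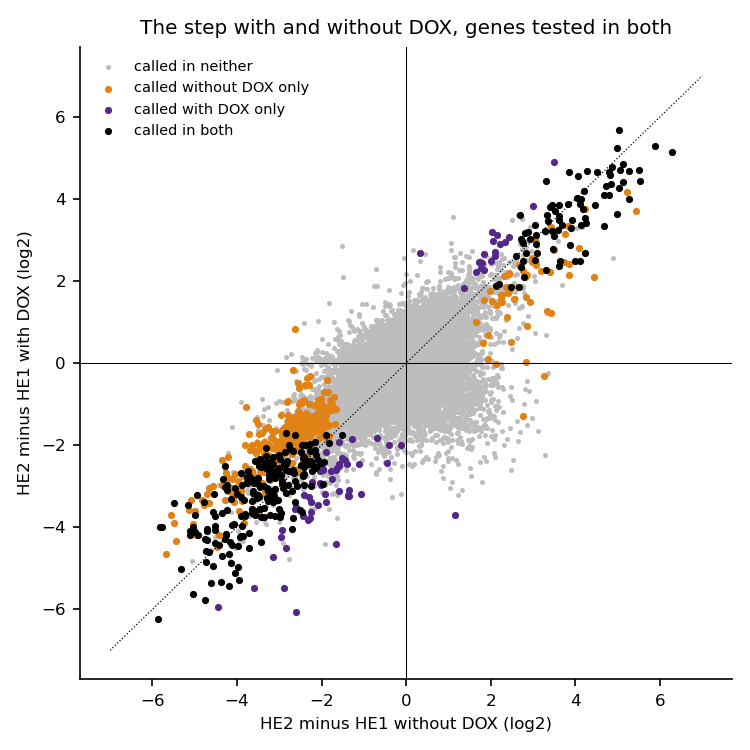
Difference between HE2 and HE1 cells without DOX (x axis) and with DOX (y axis), both log2, for genes tested in both. Black points were called in both steps, violet with DOX alone, orange without DOX alone and grey in neither, and the dotted line marks equal differences. The 284 genes called in both lie along the line in the upper right and lower left.

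The promoters of the genes that rose are shown with the letters that blood factors are known to bind, since Runx1 rose. Windows run from 250 bases before to 50 bases after the start of a gene (RefSeq, GRCm38.p6), and 9 of the 10 largest fitted rises and 6 of the 10 largest fitted falls had one. TGTGGT, the letters of a RUNX site on either strand, stood in 22.6% of 93 windows of genes called higher and 9.69% of 227 windows of genes called lower, against 13% of the 14337 windows of genes tested and 16.8% of all 32851 windows of 300 bases. AGATAA, for GATA factors, stood in 11.8% and 7.05%, against 7.30% of genes tested and 11.2% of all. TGANTCA, for AP-1, stood in 10.8% and 8.81%, against 5.33% and 7.81%. GGAATG, for TEAD factors, stood in 5.38% and 15.0%, against 12.6% and 14.7%. These shares are descriptions with no test, and a match is not a site. Matches to any of these motifs are in capitals below, where windows run 5′ to 3′ along the gene. Windows are given for 3 genes with a RUNX match among the 10 largest fitted rises, of which Ltf has a bound only. They are Ltf (chr9:111019042-111019341, plus strand), Cst7 (chr2:150570165-150570464, plus strand) and Fcer1g (chr1:171234300-171234599, minus strand).
Ltf: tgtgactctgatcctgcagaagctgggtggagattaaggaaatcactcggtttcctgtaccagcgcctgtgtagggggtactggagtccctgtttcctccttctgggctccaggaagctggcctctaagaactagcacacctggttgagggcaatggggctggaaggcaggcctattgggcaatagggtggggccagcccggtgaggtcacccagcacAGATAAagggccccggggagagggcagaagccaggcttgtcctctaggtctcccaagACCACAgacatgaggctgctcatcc
Cst7: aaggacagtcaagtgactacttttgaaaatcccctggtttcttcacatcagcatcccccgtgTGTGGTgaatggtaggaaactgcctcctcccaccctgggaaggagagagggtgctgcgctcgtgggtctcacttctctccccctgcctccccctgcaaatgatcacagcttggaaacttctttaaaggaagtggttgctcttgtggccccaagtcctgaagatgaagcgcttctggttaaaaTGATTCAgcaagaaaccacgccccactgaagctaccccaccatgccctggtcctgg
Fcer1g: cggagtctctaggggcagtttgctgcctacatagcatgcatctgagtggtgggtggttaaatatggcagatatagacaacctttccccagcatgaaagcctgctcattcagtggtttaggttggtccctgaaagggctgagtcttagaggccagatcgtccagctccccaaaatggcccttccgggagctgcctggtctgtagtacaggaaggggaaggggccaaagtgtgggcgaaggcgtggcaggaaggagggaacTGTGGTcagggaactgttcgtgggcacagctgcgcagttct
The RUNX letters begin at base 26 after the start in Ltf and base 10 after it in Fcer1g, and at base -188 in Cst7, where AP-1 letters begin at base -6. The number of genes shown was limited in advance, so genes not shown, among them the largest fitted falls, may hold matches too.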

How the data were processed

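RNA from 27 samples in 13 groups was labelled and hybridised to one-colour Agilent mouse arrays. The deposited intensity of each spot was obtained by the authors with Feature Extraction (10.7.3.1 per the file headers, 10.7.1.1 per the submitters' processing notes), background-subtracted and not scaled between arrays. The authors also deposited log2 values normalised between arrays, used here as an alternative, and all 27 columns lay closest to their own array.

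Spots of a probe were averaged without outlier spots, of 55681 probes 26582 were given a symbol through RefSeq, and the brightest probe of each of 37208 genes or transcripts was kept, 20145 of them with a symbol. The log2 intensity minus the 75th percentile of the array was fitted with 1 mean for each group on all 27 arrays (limma 3.58.1, R 4.3.3), leaving 14 residual and 4.374 prior degrees of freedom. The 4 arrays with DOX lay on 2 slides, which were scanned on different days and each held both groups. Where a probe was not above background on any array of a group, a bound was set against the lowest signals above background. Tables and figures were made in Python 3.11.15 with pandas 2.3.3, numpy 2.4.6 and matplotlib 3.10.9. The model was tested on simulated data.

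The comparison, gene lists and motifs were chosen with earlier results of these data known. Named genes were the 10 largest rises and falls among called genes with a symbol and groups that did not overlap, up to 4 called members of a list in each direction, every sorting marker, hematopoietic factor, AP-1 and paper-named gene, and the 5 lowest p-values for the difference of steps. Some genes this rule names are not reported here. Further uncalled list members were picked after their values were seen. The alternatives were the normexp correction with an offset of 50, quantile and median scaling, the authors' values, other filters on dim probes, the mean of all probes, replicate and slide blocks, a mean-variance trend, array weights, fits to the compared groups alone, another threshold and leaving out each array. Sequencing, flow cytometry and qPCR data were not analysed here.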

Additional observations from a re-analysis of the deposited data

How the results depend on the processing

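The scaling moved the balance of calls. Of the calls 28.1% were higher in HE2, against 41.0% after the normexp correction (131 lower), 62.7% with median scaling (50 lower), 37.0% with the authors' values (213 higher) and 35.9% with quantile normalisation. The median of all genes was 0.08, and 0.46 with median scaling. Without the filter on dim probes 176 were lower, and with detection in both groups 55 were higher and 120 lower. Array weights gave 39 higher and 99 lower, the slide as a fixed block 422 and 711, the slide as a random block 455 and 842, and an adjusted p under 0.1 with no fold minimum 430 lower. With a replicate block 134 were higher and 333 lower. The deviations of same-numbered HE1 and HE2 arrays correlated at 0.741, but 2 pairs do not establish a pairing by number. The compared groups alone gave 0 and 0, and 441 and 1134 once blocked. Leaving out each array gave 21 to 85 higher and 58 to 131 lower, the fewest higher without HE1 replicate 1 and the fewest lower without HE2 replicate 1. For the difference of the steps, leaving out an array gave 0 to 1 genes, the latter without HE2 DOX replicate 1.

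Without DOX the 625 calls became 253 (normexp), 1111 (quantile), 255 (median scaling), 1165 (authors' values), 276 (detection in both groups), 1567 and 1672 (slide as a fixed and a random block), 334 (array weights), 0 (compared groups alone) and 114 to 466 when an array was left out. The median of the sorting markers, 1.39, became -0.50 to 1.25 when an array was left out, the lowest without HE2 DOX replicate 1. Medians of AP-1, Notch, D cyclin, interferon and stress genes changed sign in at least 2 alternatives, median scaling among them, and that of endothelial transcription factors without HE1 DOX replicate 2. The cause of these shifts was not tested.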
